A study of Mus musculus with 6 samples.

Results

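The genes described here are 2 metallothioneins, Mt1 and Mt2, and 3 zinc transporters, Slc30a1, Slc39a4 and Slc39a5. These 5 genes were found by symbol among the 32285 features of the count tables, and their unique molecular identifiers (UMIs, each standing for 1 captured RNA molecule) were summed per library over classes of cells gated by marker genes. They were chosen from results of these data, so their levels and fold changes are given as descriptions, without a test.

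Single cells of the small intestinal mucosa were sequenced from 3 control littermates and 3 IE-HuR-/- mice, 1 library per mouse, so that n = 3 libraries per group throughout. The IE-HuR-/- mice carried floxed Elavl1 alleles, the gene of the RNA-binding protein HuR, with Cre driven by villin, a promoter active in the intestinal epithelium, and the littermates carried the floxed alleles without Cre and are labelled wild-type. All mice were 6 to 8 weeks old, had a C57BL/6 background per the study's methods, and were matched for age and gender. The sources differ on feeding, which the labels give as normal in every sample, while the study's methods state that food was withheld for a day before experiments, with water given freely, in both groups alike. The mucosa was taken apart with EDTA, which binds divalent metal ions, and trypsin, in both groups alike.

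Zinc is taken up from the lumen by Slc39a4, an importer of the apical membrane of enterocytes whose human counterpart is mutated in acrodermatitis enteropathica. Slc39a5 is an importer of the basolateral membrane, and Slc30a1 exports zinc out of the cytosol. Metallothioneins are small cysteine-rich proteins that bind zinc and copper, and the zinc sensor Mtf1 activates their genes and Slc30a1 through short metal response elements when cytosolic zinc rises, while glucocorticoids, oxidants and inflammation also induce metallothioneins.

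The library totals ranged from 59518012 to 91818560 UMIs. Of 60706 barcodes, 42679 had at least 200 genes and 1000 UMIs, 36767 of them fell in a named class, 371 matched 2 classes and were left out, and 5541 matched none. The libraries shared 435 barcodes in all, and no library was a copy of another. In enterocyte-like cells the 14 enterocyte markers summed to between 77596 and 84788 counts per 1000000 UMIs of the class in that library (CPM), with none of them at 0, and the 12 T or NK cell markers to between 100.3 and 202. Elavl1, the targeted gene, was at 28.3, 30.6 and 28.4 CPM in the control libraries and at 29.5, 29.6 and 30.8 in the libraries labelled IE-HuR-/-, a log2 fold change of 0.24 ± 0.05 (SE) after scaling (adjusted p = 0.000144249, edgeR's quasi-likelihood test), so the deletion was not visible as fewer UMIs. Which exon the deletion removes is not given in the sources used here, and UMIs from one end of the transcript may lie outside it. IE-HuR-/- libraries stands here for the libraries labelled so.

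Mt1 lies at chr8:94179082-94180327 on the plus strand of GRCm38, and Mt2 at chr8:94172664-94173568 on the same strand, with 5513 bases between them. Their coding sequences are 186 bases each, with 148 identical bases (79.6%) and a longest identical run of 20 bases between the transcripts, so reads can be told apart at most positions. Slc30a1 lies at chr1:191906767-191913247 on the plus strand, Slc39a4 at chr15:76612383-76617384 on the minus strand and Slc39a5 at chr10:128395931-128401229 on the minus strand. HuR is known to bind AU-rich 3′ untranslated regions. The pentamer ATTTA did not occur in the 3′ untranslated region of Mt1 (134 bases), Mt2 (141 bases), Slc39a4 (144 bases) or Slc39a5 (116 bases), and it occurred 6 times in that of Slc30a1 (3492 bases). Of 20737 coding genes, 62.8% held it at least once. Their 3′ untranslated regions had a median length of 848 bases, and this share was not matched to the members' lengths.

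RefSeq promoter windows of GRCm38.p6, 250 bases before to 50 after the start, were given for 4 of the 5 genes, and Slc39a4 had none. The windows are shown because Mt1 and Slc30a1 were both higher in IE-HuR-/- enterocytes while Mt2, a neighbour of Mt1, was not. Both cores of the metal response element were searched on both strands, TGCACNC and TGCGCNC, and capitals mark the matches, none of which overlapped another. The first 280 bases of each window are printed, up to 30 bases past the start.
Mt1, chr8:94178839-94179118, plus strand: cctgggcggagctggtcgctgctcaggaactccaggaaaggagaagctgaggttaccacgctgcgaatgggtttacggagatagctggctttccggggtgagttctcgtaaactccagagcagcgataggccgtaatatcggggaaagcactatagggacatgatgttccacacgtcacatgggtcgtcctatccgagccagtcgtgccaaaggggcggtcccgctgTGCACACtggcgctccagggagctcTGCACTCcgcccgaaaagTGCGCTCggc
Mt2, chr8:94172368-94172647, plus strand: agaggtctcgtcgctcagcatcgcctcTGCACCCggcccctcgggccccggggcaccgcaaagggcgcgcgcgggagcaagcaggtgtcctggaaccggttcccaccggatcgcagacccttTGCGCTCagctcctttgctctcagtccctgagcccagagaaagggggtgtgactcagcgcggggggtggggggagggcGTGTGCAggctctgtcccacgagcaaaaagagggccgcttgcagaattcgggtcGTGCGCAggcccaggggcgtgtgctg
Slc30a1, chr1:191906531-191906810, plus strand: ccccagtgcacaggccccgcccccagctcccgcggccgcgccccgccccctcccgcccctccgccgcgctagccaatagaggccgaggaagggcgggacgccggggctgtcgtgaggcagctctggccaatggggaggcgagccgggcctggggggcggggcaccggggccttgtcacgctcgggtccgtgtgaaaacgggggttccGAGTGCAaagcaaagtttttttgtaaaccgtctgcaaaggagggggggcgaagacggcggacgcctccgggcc
Slc39a5, chr10:128401195-128401474, minus strand: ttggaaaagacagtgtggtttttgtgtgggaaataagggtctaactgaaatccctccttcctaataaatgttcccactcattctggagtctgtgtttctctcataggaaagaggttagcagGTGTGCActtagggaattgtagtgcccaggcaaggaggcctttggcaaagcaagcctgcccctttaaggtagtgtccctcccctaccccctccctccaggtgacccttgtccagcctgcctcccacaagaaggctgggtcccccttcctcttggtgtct
Mt1 held 3 matches, starting 23 bases before and 2 and 20 bases after the annotated start. Which start these cells used was not examined, and bases beyond each window were not searched, so the counts are of the windows only. Mt2 held 4 matches, Slc30a1 held 2, the second of them beginning 30 bases past the start and so outside the printed stretch, and Slc39a5 held 1 in this window and 0 in a second one. At least 1 match stood in 25.7% of all 32851 windows and at least 4 in 0.517%. A match of letters is not evidence of binding.

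Whether the members differed by label was first described in enterocyte-like cells, the absorptive cells of the villus. Mt1 was 10.3-fold higher in the IE-HuR-/- libraries by the mean level, Slc30a1 nearly doubled in level, Slc39a4 and Slc39a5 were modestly higher, and Mt2 was not higher. UMIs count molecules at one end, so levels are not divided by length. Mt1 was at 182, 199 and 219.7 CPM in the control libraries and at 1975, 2081 and 2159 CPM in the IE-HuR-/- libraries. The lowest IE-HuR-/- library was far above the highest control library, the means were 200.2 ± 19.1 and 2072 ± 92.6 (SD, n = 3), and the fitted log2 fold change was 3.57 ± 0.06 (SE, edgeR). Mt2 was at 9.19, 9.35 and 12.5 CPM in controls and at 7.74, 5.74 and 8.29 CPM in IE-HuR-/- libraries. The 3 IE-HuR-/- values were all below the control values, but the distance was small against the spread, with a log2 fold change of -0.31 ± 0.20 on 1760 and 988 UMIs in all. The neighbouring genes therefore parted: each Mt2 UMI stood beside 19.8, 21.3 and 17.6 Mt1 UMIs in the control libraries and beside 255, 362 and 260.5 in the IE-HuR-/- libraries. The transcripts of both have similar lengths, 549 and 511 bases.

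The exporter Slc30a1 was at 25.6, 24.0 and 23.2 CPM in controls and at 44.7, 46.8 and 46.5 CPM in IE-HuR-/- libraries, a log2 fold change of 1.11 ± 0.05. The importer Slc39a4 was at 173.5, 177 and 179 CPM against 240.9, 237.8 and 231.5 CPM, a log2 fold change of 0.62 ± 0.04. For both, the groups did not overlap and the libraries of each group lay close together. The basolateral importer Slc39a5 was at 59.1, 64.6 and 65.8 CPM against 72.3, 75.5 and 79.2 CPM, a log2 fold change of 0.45 ± 0.05. In CPM, all 3 IE-HuR-/- libraries lay above all 3 control libraries for 4 of the 5 members, as they did for 15.8% of the 12799 genes tested, and below them for 1 member, as they did for 50.9%. The fits scale libraries by the trimmed mean of M-values (TMM), and without it the median log2 fold change of all genes moved from -0.01 to -0.20, so that fold changes are relative to that shift. Without this scaling Slc39a5 came to 0.26 and Slc39a4 to 0.42. Other lists moved with the label in the same cells: of 16 genes of the cells' response to dissociation 14 rose and 1 fell, led by Egr1, Hspa1a and Hspa1b, of 8 proximal-intestine genes 1 rose and 6 fell, led by Cybrd1, Slc40a1 and Pdx1, and of 8 distal-intestine genes 6 rose and 1 fell, led by Fabp6, Slc10a2 and Muc13 (edgeR's quasi-likelihood test, adjusted p under 0.05). Of all 12799 genes tested 29.5% rose and 28.5% fell by the same call. Summed, the dissociation genes were at 1600.05 to 1655 CPM in controls and 1972 to 2024 CPM in IE-HuR-/- libraries, and none of the 3 lists had a gene at 0. Their part in the members' levels was not tested. The division by Fabp6 given further on uses a single distal gene and is a description.

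**Figure D1:**
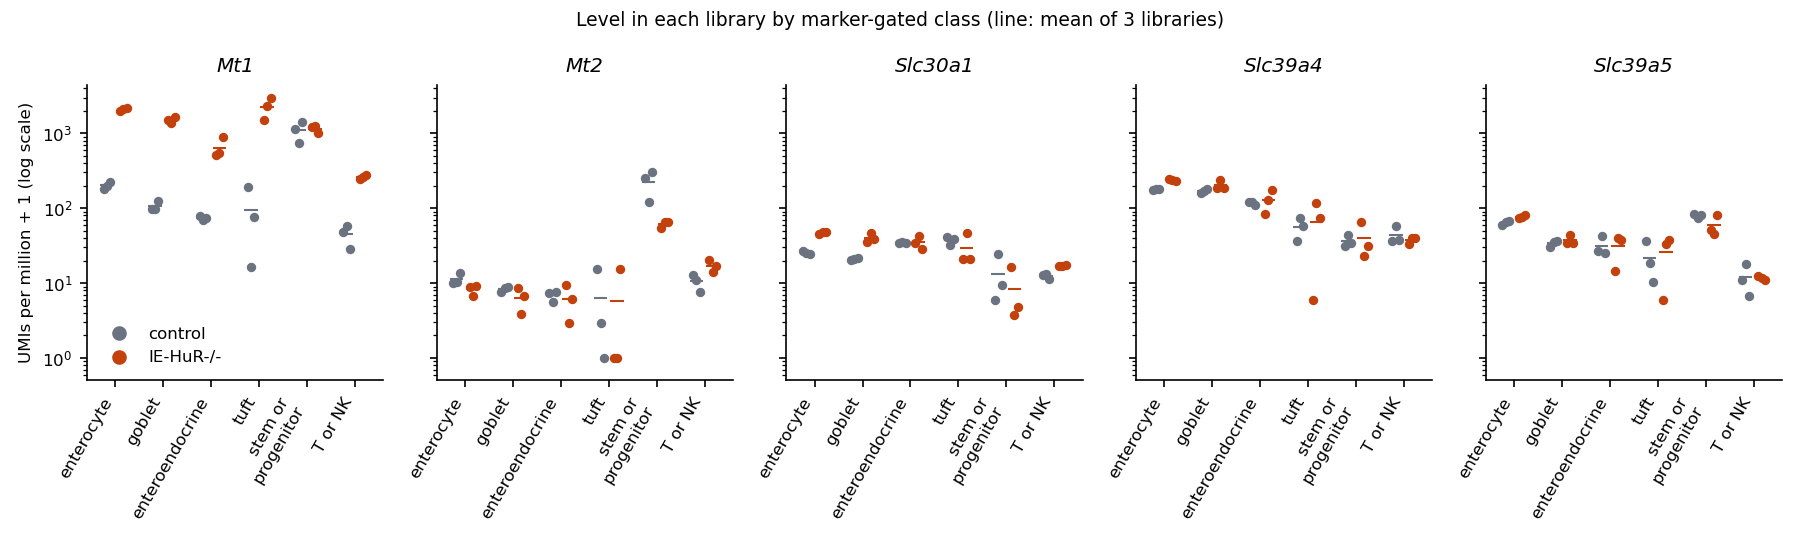
Level of each member (CPM + 1, log axis) in 6 marker-gated classes, 1 point per library, with lines at the mean of 3 libraries. Mt1 is far higher in the IE-HuR-/- libraries in enterocytes and goblet cells, equal between groups in stem or cycling progenitors, and Mt2 is highest in control progenitors, at 121 to 304.6 CPM.

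The members' levels by class were described next, to see where in the mucosa each gene is expressed. In controls, Mt1 was highest in stem or cycling progenitors (1099 ± 330 CPM), followed by fibroblasts (635 ± 45.8), enterocytes (200.2 ± 19.1), myeloid cells (155 ± 53.5), goblet cells (106 ± 16.0), tuft cells (92.8 ± 87.8), enteroendocrine cells (73.5 ± 4.90), T or NK cells (44.1 ± 15.4), B or plasma cells (28.2 ± 12.3) and erythroid cells (25.1 ± 7.69). Enterocytes and myeloid cells, myeloid and goblet cells, goblet and tuft cells, tuft and enteroendocrine cells, T or NK and B or plasma cells, and B or plasma and erythroid cells did not differ beyond their spread. In IE-HuR-/- libraries the order began with tuft cells (2260 ± 732 CPM) and enterocytes (2072 ± 92.6), which overlapped, then goblet cells (1509 ± 136), progenitors (1153 ± 136), fibroblasts (954 ± 504), enteroendocrine cells (645 ± 205), myeloid cells (362 ± 75.1), T or NK cells (260.5 ± 16.1), erythroid cells (205 ± 73.8) and B or plasma cells (177 ± 135). Progenitors, fibroblasts and enteroendocrine cells overlapped in that order, as did the last 3 classes. Paneth-like cells numbered too few to place any member.

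Goblet-like cells, which secrete mucus, held Mt1 at 97.5, 95.9 and 124 CPM in controls and at 1511, 1372 and 1644 CPM in IE-HuR-/- libraries, a log2 fold change of 4.03 ± 0.13. Slc30a1 was at 19.4, 20.2 and 20.5 CPM against 34.3, 46.1 and 37.4 CPM, a log2 fold change of 1.15 ± 0.13. Neither gene's groups overlapped. Slc39a4 (0.45 ± 0.10), Slc39a5 (0.31 ± 0.13) and Mt2 (-0.22 ± 0.28) had smaller log2 fold changes, and the groups overlapped for Slc39a5 and Mt2. In CPM, 3 of the 5 members were higher in every IE-HuR-/- goblet sum, as were 11.3% of the 9062 genes tested, and 0 were lower in every one, as were 35.1%. Goblet-like cells carried enterocyte RNA: their 14 enterocyte markers summed to between 44869 and 47231 CPM in controls and between 29267 and 39769 CPM in IE-HuR-/- libraries. In goblet cells with under 2% enterocyte-marker UMIs, Mt1 was still at 74.0 ± 33.8 CPM in controls and 1166 ± 223 CPM in IE-HuR-/- libraries, while Slc30a1 was at 4.92 ± 4.04 and 14.1 ± 7.50 CPM and its groups overlapped.

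Enteroendocrine-like cells, which secrete hormones, had Mt1 at 78.3, 68.5 and 73.6 CPM against 517, 536 and 882 CPM, a log2 fold change of 3.19 ± 0.24. In the same cells Slc30a1 was at 33.5 ± 0.72 CPM against 34.4 ± 7.12 CPM, a log2 fold change of 0.09 ± 0.22. Mt1 was thus separated between groups in this class, while Slc30a1, with 140 and 91 UMIs in all, overlapped. How many of all genes were separated in this class was not computed. Tuft-like cells, a chemosensory type of which 13 to 27 were found in each IE-HuR-/- library, had Mt1 at 188, 15.5 and 74.6 CPM against 1501, 2318 and 2962 CPM, with no overlap, and Slc30a1 at 36.4 ± 4.95 CPM against 28.4 ± 14.4 CPM. Under 2% enterocyte-marker UMIs, Mt1 was at 16.9 ± 24.7 CPM against 1895 ± 732 CPM in tuft cells and at 65.0 ± 19.6 CPM against 437 ± 53.2 CPM in enteroendocrine cells.

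Stem or cycling progenitors of the crypt showed another pattern, which was not tested against the other classes. Mt1 was at 1150.04, 746 and 1401 CPM in controls and at 1213, 1248 and 997 CPM in IE-HuR-/- libraries, and the groups overlapped, with a log2 fold change of 0.03 ± 0.21. Mt2 was at 252.5, 121 and 304.6 CPM in controls and at 53.0, 63.9 and 64.7 CPM in IE-HuR-/- libraries, a log2 fold change of -1.95 ± 0.30. All 3 IE-HuR-/- libraries lay below all 3 control libraries for Mt2, on 288 and 64 UMIs in all. Among all genes tested, 50.9% did so in enterocytes, and the share in progenitors was not computed. Each Mt2 UMI stood beside 4.55 to 6.14 Mt1 UMIs in control progenitors and beside 15.4 to 22.9 in IE-HuR-/- progenitors. Slc39a5 was at 78.2 ± 5.29 CPM against 58.4 ± 18.9 CPM, and Slc30a1, with 14 and 9 UMIs in all, was too low to compare. These are small classes, of 12 to 30 cells per control library and 33 to 44 per IE-HuR-/- library. The enterocyte markers in them summed to between 2753 and 7692 CPM in controls and between 8652 and 15894 CPM in IE-HuR-/- libraries. Markers of other types in them also moved with the label without overlap, the 12 T or NK markers from between 16.8 and 118.6 to between 127.8 and 388 CPM, the 8 B or plasma markers from between 2.89 and 8.40 to between 36.1 and 245 CPM, the 9 tuft markers from between 4.20 and 8.67 to between 33.4 and 190.03 CPM and the 13 enteroendocrine markers from between 30.001 and 78.1 to between 84.0 and 102.8 CPM, with Trdc, Il25 and Gcg at 0. The progenitors' own 13 markers overlapped, at 4713 to 6163 and 5064 to 5809 CPM. The part of this make-up in the Mt1 and Mt2 levels was not tested. In progenitors with under 2% enterocyte-marker UMIs, Mt1 was at 1114 ± 324 against 1121 ± 55.5 CPM and Mt2 at 231 ± 95.1 against 68.4 ± 14.8 CPM.

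T or NK cells had Mt1 at 47.6, 57.5 and 27.2 CPM in controls and at 243.9, 261 and 276 CPM in IE-HuR-/- libraries. These levels were 12.3% to 12.8% of the enterocyte level in the IE-HuR-/- libraries and 12.4% to 28.9% in controls, where the enterocyte gene Apoa1 stood at 9.27% to 11.1% and at 8.03% to 18.5%. Enterocyte RNA was thus present in these barcodes at a like share, and its part in the Mt1 UMIs of T or NK cells was not tested. Mt2 was at 11.99, 9.96 and 6.66 CPM in control and at 19.1, 13.1 and 15.8 CPM in IE-HuR-/- T or NK cells. All 3 IE-HuR-/- libraries here lay above the controls, unlike in enterocytes, on 135 and 268 UMIs in all. No share of all genes separated in this class was computed. The share of cells with an Mt1 UMI, after every cell was thinned to 1000 UMIs, was 13.3% to 15.4% of control enterocytes and 68.5% to 70.8% of IE-HuR-/- enterocytes. In T or NK cells it was 2.72% to 4.27% and 14.3% to 16.6%. Before thinning the shares were 34.0% to 41.3% and 89.3% to 90.7% in enterocytes, at median depths of 3475 to 6597 UMIs per cell, and 11.0% to 13.8% and 47.1% to 49.5% in T or NK cells, at 4228 to 5479.

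Position along the villus was described with a score per enterocyte, the UMIs of 8 tip genes over those of the tip genes and 7 lower-villus genes together, and 25204 scored cells were divided into lower, middle and tip bins of nearly equal size. The score genes themselves moved with the label: the tip genes summed to between 7194 and 8041 CPM in controls and between 9515 and 10338 CPM in IE-HuR-/- enterocytes, and the lower genes to between 871 and 941 CPM and between 1436 and 1561 CPM. Of the binned cells, 13917 lay within 0.05 of a bin limit. That number includes every tip cell, since the upper limit, 0.967, lay within 0.05 of the highest possible score. The bins are thus ranges of a score, not cell types.

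As a ratio, Mt1 fell steeply towards the tip in controls and only shallowly in IE-HuR-/- libraries. In CPM the drop was larger in IE-HuR-/- libraries, from a mean of 2664 to 1404, than in controls, from 431 to 47.7. In the lower villus it was at 390.2, 433 and 470.4 CPM in controls and at 2569, 2752 and 2670 CPM in IE-HuR-/- libraries, a log2 fold change of 2.77 ± 0.06. At the tip it was at 42.9, 53.3 and 46.9 CPM in controls and at 1303, 1428 and 1481 CPM in IE-HuR-/- libraries, a log2 fold change of 5.09 ± 0.07, or 29.4-fold by the mean CPM. This fold rests on a low control level, near the 44.1 ± 15.4 CPM of control T or NK cells. The part of RNA from other cells in that level was not tested. Every IE-HuR-/- tip value was above every control value of the lower villus, so that Mt1 at the IE-HuR-/- tip exceeded its highest control bin. Lower villus over tip, the ratio was 9.10, 8.13 and 10.0 in the control libraries and 1.97, 1.93 and 1.80 in the IE-HuR-/- libraries. The tip-minus-lower difference was -2.85 ± 0.04 (log2) in controls and -0.53 ± 0.04 in IE-HuR-/- libraries, and these differed by 2.32 ± 0.06. Of the control tip cells with at least 10000 UMIs, 68.9% to 72.4% had no Mt1 UMI, against 1.45% to 2.71% of those of the IE-HuR-/- libraries. The median cell there had 0 CPM in each control library and 737 to 771 CPM in the IE-HuR-/- libraries. Most of these IE-HuR-/- tip cells thus held Mt1 UMIs, but unevenly, with 90th percentiles of 2762 to 3057 CPM. The part of RNA from other cells in these shares was not tested either.

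Mt2 kept to the lower villus in both groups. It was at 22.9, 22.0 and 32.2 CPM in the control lower villus and at 17.7, 13.8 and 18.3 CPM in IE-HuR-/- libraries, which all lay below the controls, and at 1.19 ± 0.67 and 0.56 ± 0.34 CPM at the tip, the latter from 72 and 25 UMIs in all. The tip-minus-lower difference was -4.00 ± 0.29 (log2) in controls and -4.47 ± 0.41 in IE-HuR-/- libraries, with the difference between them, -0.46 ± 0.73, inside its error. Mt1 and Mt2 thus shared a gradient in controls, and of the pair only Mt2 was steep on the log2 scale in the IE-HuR-/- libraries.

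Slc39a5 was a lower-villus gene as well, at 107, 117 and 119 CPM in the control lower villus and at 20.5, 24.4 and 18.7 CPM at the tip. In IE-HuR-/- libraries it was at 123, 127 and 131 CPM and at 22.4, 27.4 and 23.9 CPM, and the tip-minus-lower difference was -2.10 ± 0.06 in controls and -1.97 ± 0.06 in IE-HuR-/- libraries. The gradient of this importer was nearly the same in both groups. Slc30a1 was at 28.9 ± 1.75 CPM in the lower villus and 17.3 ± 1.15 CPM at the tip of controls, and at 57.2 ± 3.49 and 26.1 ± 0.79 CPM in IE-HuR-/- libraries, with tip-minus-lower differences of -0.42 ± 0.06 and -0.73 ± 0.06. Its label difference in log2 was therefore larger in the lower villus (1.13 ± 0.06) than at the tip (0.80 ± 0.08), the reverse of Mt1 on that scale. With a score of 6 genes, this difference of differences for Slc30a1 shrank from -0.32 to -0.04. Slc39a4 was highest in the middle bin, at 198 ± 6.03 CPM in controls and 283 ± 7.09 CPM in IE-HuR-/- libraries. Of the 5 members, 4 were lower at the tip than in the lower villus in all 6 libraries by CPM, as were 53.8% of the 11602 genes tested.

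**Figure D2:**
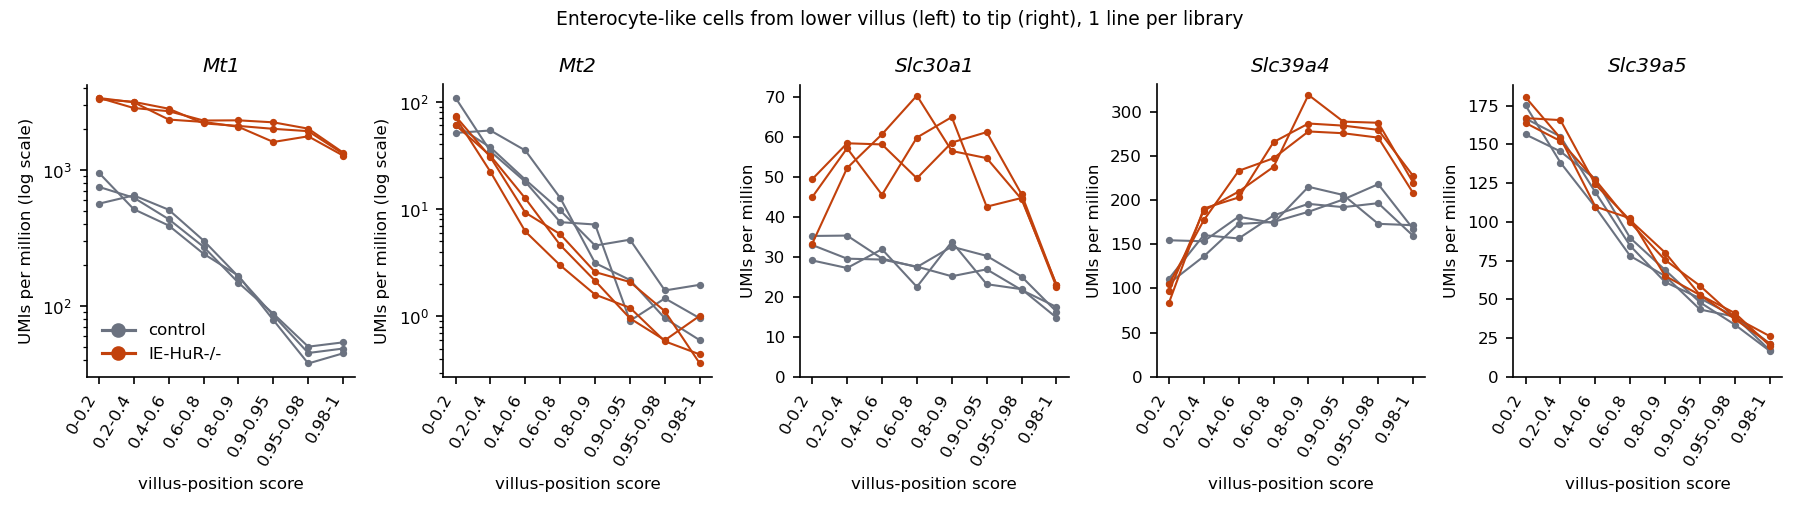
Level of each member (CPM, log axis for Mt1 and Mt2) across 8 ranges of the villus-position score in enterocyte-like cells, 1 line per library. The Mt1 lines of controls fall from between 564 and 951 to between 44.9 and 54.0, those of IE-HuR-/- libraries only from between 3304 and 3379 to between 1271 and 1337, while Mt2 and Slc39a5 fall in both groups. The IE-HuR-/- lines of Mt2 lie below those of controls in ranges 2 to 5, and those of Slc39a5 lie above in ranges 4 and 6 and overlap elsewhere.

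Because the distal-intestine gene Fabp6, a bile acid-binding protein of the ileum, was at 691 ± 42.5 CPM in control and 3016 ± 60.7 CPM in IE-HuR-/- enterocytes, lower-villus cells with at least 5000 UMIs were divided by it. This division was chosen after the values were seen. Cells without a Fabp6 UMI made up 70.8% to 77.4% of these cells in controls and 32.0% to 34.4% in IE-HuR-/- libraries, and cells with at least 0.1% Fabp6 UMIs made up 6.74% to 8.03% and 20.4% to 21.6%. In cells without Fabp6, Mt1 was at 428 ± 61.4 CPM in controls and 2520.2 ± 89.4 CPM in IE-HuR-/- libraries. In Fabp6-high cells it was at 425 ± 60.9 and 2475 ± 116 CPM, so in the lower villus Mt1 was as far apart between the groups with Fabp6 as without it. Slc30a1 behaved otherwise. In cells without Fabp6 it was at 26.7 ± 2.25 CPM in controls and 25.8 ± 1.82 CPM in IE-HuR-/- libraries, and the groups overlapped, whereas in Fabp6-high cells it was at 74.3 ± 11.9 and 179 ± 16.4 CPM, without overlap. Slc39a4 was at 158 ± 4.01 and 168 ± 6.92 CPM without Fabp6 and at 341 ± 25.5 and 389 ± 21.8 CPM with it. Within each kind of cell the importer's groups were closer, at 1.06-fold and 1.14-fold by the means, than in the whole lower bin, at 1.27-fold. The whole bin also holds cells under 5000 UMIs and cells with some Fabp6 but under 0.1%. Both were left out of the division, so unlike sets of cells stand side by side here. This narrowing was not seen at the tip, where Slc39a4 was 1.32-fold apart without Fabp6 and 1.495-fold apart in Fabp6-high cells, against 1.35-fold in the whole bin. Mt2 was at 25.9 ± 6.51 and 19.8 ± 6.83 CPM without Fabp6, where the groups overlapped, and at 24.5 ± 13.9 and 1.11 ± 1.16 CPM in Fabp6-high cells, the latter from 95 and 12 UMIs. Slc39a5 overlapped between the groups in both kinds of cell. In the middle bin, Mt1 was at 98.0 ± 3.06 and 1953 ± 54.8 CPM without Fabp6, 19.9-fold apart by the means. In Fabp6-high cells of that bin it was at 242 ± 45.7 and 2403 ± 244 CPM, 9.92-fold apart. At the tip Mt1 was 30.4-fold apart without Fabp6 and 33.0-fold apart in Fabp6-high cells. Slc30a1 in the middle bin was again at 23.3 ± 2.39 and 24.8 ± 2.63 CPM without Fabp6 and at 72.3 ± 12.7 and 183 ± 17.4 CPM in Fabp6-high cells. The tip differed: without Fabp6 Slc30a1 was at 14.5 ± 1.92 and 18.7 ± 1.61 CPM and the groups did not overlap, and in Fabp6-high cells, 59 in controls and 129 in IE-HuR-/- libraries, it was at 62.9 ± 22.4 and 99.6 ± 15.0 CPM and they overlapped. Fabp6 itself moved with the label, so cells of equal Fabp6 in both groups need not come from the same stretch of intestine.

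**Figure D3:**
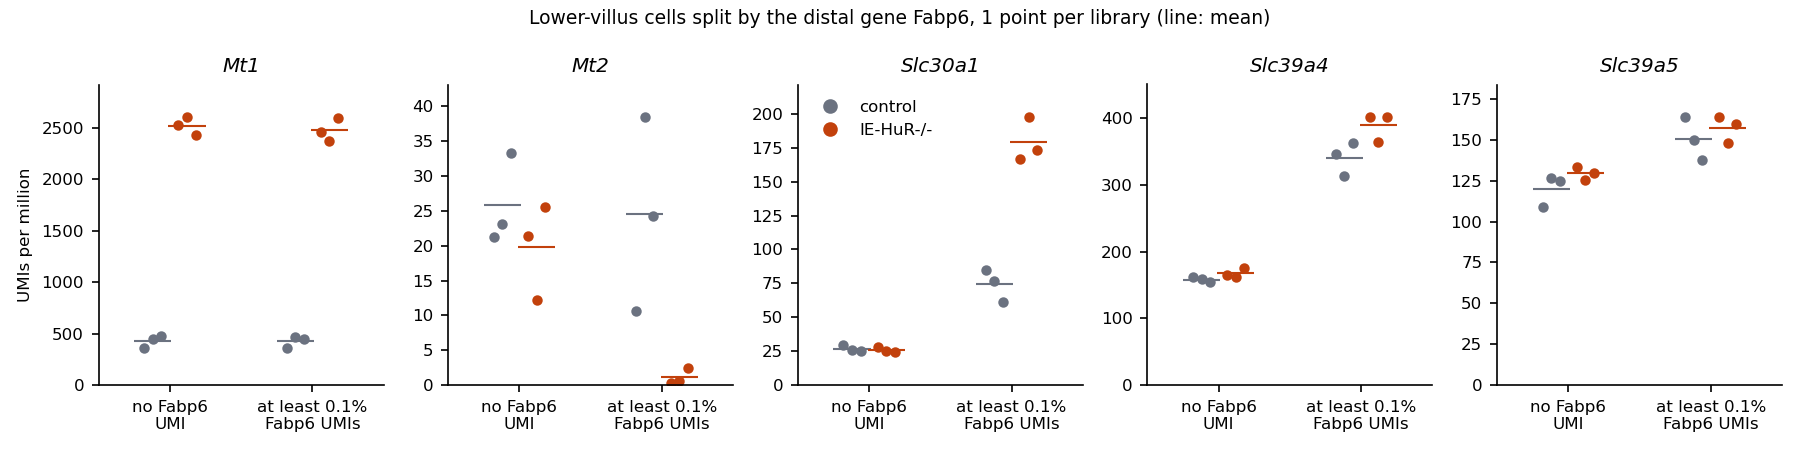
Level of each member (CPM) in lower-villus cells with at least 5000 UMIs, divided by the distal gene Fabp6, 1 point per library with lines at the mean of 3. Mt1 separates the groups equally in both kinds of cell, at 428 and 2520.2 without Fabp6, while Slc30a1 overlaps at 26.7 and 25.8 without Fabp6 and separates at 74.3 and 179 with it.

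The other zinc genes were examined as a list of 28, made with earlier results of these data known: the remaining zinc transporters, the sensor Mtf1, the metallothioneins Mt3 and Mt4, the zinc-binding proteins Crip1 and Crip2, the zinc receptor Gpr39 and Tmem163. In enterocytes 21 were high enough to test, of which 4 rose, 6 fell and 11 did not pass (edgeR's quasi-likelihood test, adjusted p under 0.05). Of all genes tested 29.5% rose and 28.5% fell, so the list's counts were near or under those shares. The median log2 fold change of the list was -0.08, against -0.01 for all genes. Slc39a1, an importer of the plasma membrane, fell from 53.2, 52.5 and 52.3 CPM to 23.4, 23.9 and 24.3 CPM (log2 fold change -0.95 ± 0.05, adjusted p = 1.5157e-16 by edgeR). Slc30a2, which loads zinc into vesicles, fell from 81.9, 78.3 and 77.9 CPM to 40.5, 42.2 and 43.8 CPM (-0.72 ± 0.04, adjusted p = 4.69803e-14 by edgeR). The groups of both were far apart. Slc30a5, of the secretory pathway, and Slc30a10, a manganese exporter of the same family, each fell by 0.40 on the log2 scale. Crip1 rose by 0.30 on that scale, and the call was lost without TMM scaling. Mtf1 was at 43.2 ± 0.94 CPM in controls and 43.8 ± 1.03 CPM in IE-HuR-/- libraries, with a log2 fold change of 0.22 ± 0.04 after TMM scaling. Mt3 and Mt4 were among the 7 genes too low to test, so Mt1 and Mt2 were the metallothioneins measured in enterocytes. In T or NK cells Mt3 was high enough to test (log2 fold change 1.90 ± 0.46) and did not pass (adjusted p = 0.0579 by edgeR).

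Metallothioneins also bind copper, and of 16 copper genes 13 were tested in enterocytes, of which 9 rose, 1 fell and 3 did not pass, with a median log2 fold change of 0.17, where 29.5% and 28.5% of all genes were called. Atp7b, a copper-exporting ATPase, fell from 12.8, 13.1 and 13.2 CPM to 4.61, 4.40 and 5.26 CPM (-1.26 ± 0.07, adjusted p = 6.55761e-15 by edgeR). Sco2, a copper chaperone of cytochrome oxidase, rose from 23.5, 26.4 and 27.1 CPM to 42.4, 41.5 and 41.5 CPM (0.90 ± 0.05, adjusted p = 7.83123e-15 by edgeR). Both sets of libraries were apart, and both genes kept their direction without TMM scaling. Slc31a2 (0.47 ± 0.11) and Sco1 (0.41 ± 0.05) also rose in log2 fold change. Atp7a was called higher (0.30 ± 0.07), but its groups overlapped in CPM, at 21.6, 19.5 and 16.98 against 20.3, 21.4 and 20.9, the call was lost without TMM scaling (0.10), and leaving out control replicate 3 brought it to 0.19. Without TMM scaling, 3 genes of both lists together rose and 15 fell, against 13 and 7 with it, over all genes 1891 rose and 6156 fell, against 3772 and 3651, and the direction of Slc30a7, Slc30a9, Slc31a1, Atox1 and Heph turned.

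**Figure D4:**
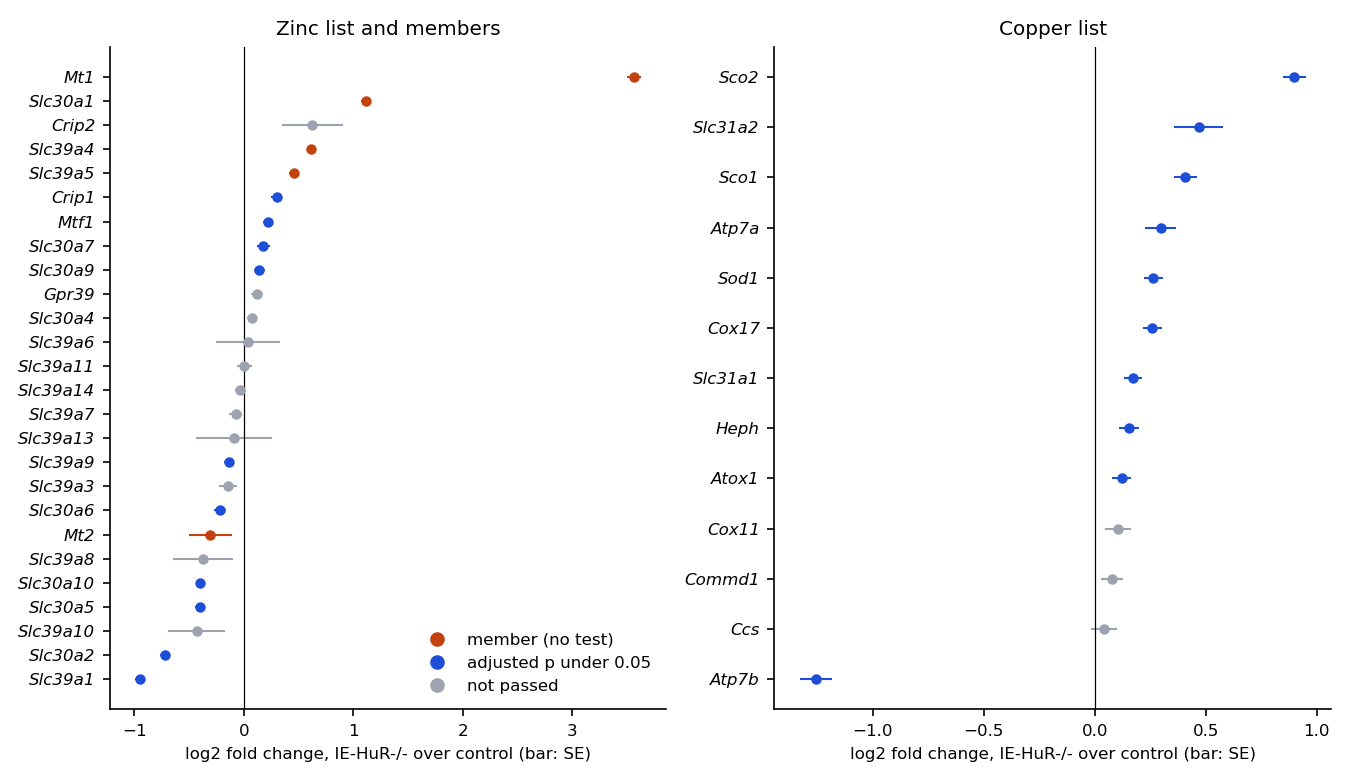
Log2 fold change (IE-HuR-/- over control, bars: SE) in enterocyte-like cells of the members (no test) and of the tested genes of the zinc and copper lists, blue where the adjusted p was under 0.05. Mt1 stands apart at 3.57, Slc39a1 and Atp7b lie lowest at -0.95 and -1.26, and Mt2 sits among the zinc genes at -0.31.

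In goblet cells, 0 of 17 tested zinc genes rose and 6 fell, and 0 of 13 copper genes rose and 1 fell, where 14.9% of all genes rose and 12.1% fell. Slc30a2 fell from 58.5, 53.5 and 49.5 CPM to 15.5, 14.8 and 9.96 CPM (-1.82 ± 0.15, adjusted p = 1.71441e-08 by edgeR). Slc39a1 fell by 0.86, Slc30a5 by 0.82, Slc30a10 by 0.49, Slc39a14 by 0.47 and Atp7b by 1.54 on the log2 scale. For Slc30a10 the call was lost by DESeq2 (-0.48) and when control replicate 1 (-0.38) or IE-HuR-/- replicate 3 (-0.30) was left out. In goblet cells with under 2% enterocyte-marker UMIs, 2 of the 7 calls held, those of Slc39a1 (-0.91) and Slc30a5 (-0.84). Another 3 were lost, those of Slc30a10 (-0.69 ± 0.37) and Slc39a14 (-0.64 ± 0.25) among them. The log2 fold changes of Slc30a10 and Slc39a14 were not smaller than in all goblet-like cells, but their SEs were larger. The other 2 genes, Slc30a2 and Atp7b, were too low to test. Slc30a2 was there at 4.68, 14.9 and 5.64 CPM in controls and at 3.67, 2.61 and 5.48 CPM in IE-HuR-/- libraries, so its groups overlapped and its level was far under that of all goblet-like cells. Crip1 (0.63) and Cox17 (0.39) were called higher in these cells. Slc39a1 and Slc30a5 thus fell in enterocytes and in goblet cells with little enterocyte RNA, which come from the same mice. Without TMM scaling 12 genes of the lists fell in goblet cells, and the median of all genes was -0.20, while 748 of all genes rose and 2279 fell, against 1351 and 1095.

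Along the villus, with the library as a block, 8 zinc genes were higher at the tip than in the lower villus and 6 were lower, of 19 tested, and 4 copper genes were higher and 8 lower, of 13 tested, where 36.4% of all genes were higher and 42.8% lower. At the tip Slc39a9, an importer of the Golgi, was at 146 ± 2.12 CPM in controls against 64.7 ± 1.02 CPM in the lower villus (log2 difference over both groups 1.45 ± 0.04). Gpr39, which senses extracellular zinc, was at 32.2 ± 0.60 against 17.8 ± 1.68 CPM (1.28 ± 0.07). Crip2 was the most tip-sided of the list (2.05 ± 0.37) but was low, at 0.53 ± 0.12 CPM in control enterocytes. Slc30a5 (-0.92 ± 0.08) and Mtf1 (-0.65 ± 0.05) were lower at the tip, on the side of Mt1, Mt2 and Slc39a5. Of the copper genes, Ccs, which loads copper into superoxide dismutase, was at 35.4 ± 3.19 CPM in the control lower villus and 8.61 ± 0.23 CPM at the tip (-1.85 ± 0.09). Commd1 (-1.24 ± 0.06), Atox1 (-0.93 ± 0.07) and Atp7b (-0.82 ± 0.10) were lower at the tip, and Slc31a2 (0.89 ± 0.12) was higher. Without TMM scaling the median of all genes was -0.45, against -0.09, and 7 genes of both lists were higher and 20 lower, against 12 and 14, and of all genes 2720 were higher and 6603 lower, against 4218 and 4961.

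Whether the label difference itself changed along the villus was tested for the lists by the interaction of bin and label. It was larger at the tip for 1 zinc gene and 4 copper genes and smaller or more negative there for 6 zinc genes and 1 copper gene, where 11.0% and 15.0% of all genes were called. Slc30a2 was at 64.9, 64.6 and 62.0 CPM at the control tip and at 18.3, 24.2 and 20.6 CPM at the IE-HuR-/- tip, while in the lower villus it was at 80.7 ± 5.58 and 55.7 ± 2.61 CPM (interaction -0.99 ± 0.08, adjusted p = 7.9962e-11 by edgeR). The loss was greater at the tip. Slc30a10 was at 88.2 ± 5.03 and 41.8 ± 1.97 CPM at the tip and at 57.2 ± 0.22 and 47.5 ± 1.92 CPM in the lower villus (-0.73 ± 0.07, adjusted p = 5.17479e-11 by edgeR). Slc39a14 was at 88.0 ± 6.64 and 60.2 ± 1.77 CPM at the tip and at 112 ± 6.37 and 112 ± 5.33 CPM in the lower villus (-0.48 ± 0.06, adjusted p = 2.16929e-08 by edgeR). The 6 zinc genes with the more negative difference at the tip, where the log2 fold change of Mt1 was largest, were the transporters Slc30a2, Slc30a10, Slc39a14, Slc30a5 and Slc39a3, and Mtf1. Without TMM scaling 4 genes of the lists were called higher and 13 lower, against 5 and 7, and 825 and 2472 of all genes, against 1276 and 1745.

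The genes whose level was most like that of Mt1, over 32 sums of epithelial class and library and among 5570 genes, were Car4 (Pearson r = 0.77), H2-Eb1 (0.71), Cd74 (0.70), Duoxa2 (0.68) and Tgm2 (0.67). Car4 is a membrane carbonic anhydrase, H2-Eb1 and Cd74 belong to the MHC class II pathway, Duoxa2 is needed for dual oxidase to reach the membrane and Tgm2 is a transglutaminase. The other members were less like Mt1, with r = 0.45 for Slc39a5, 0.35 for Mt2, 0.17 for Slc30a1 and 0.15 for Slc39a4. In enterocytes Car4 was at 9.12 ± 1.73 CPM in controls and 66.8 ± 2.74 CPM in IE-HuR-/- libraries, and Cd74 at 329 ± 18.9 and 1964 ± 37.2 CPM. The sums come from 6 libraries and share cells' depth and label, so these values are a description.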

How the data were processed

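The authors deposited, for each of 6 libraries, raw UMI counts per gene and barcode. Per the labels, cells were loaded on the 10x Chromium platform with a 5′ kit, sequenced on a NovaSeq6000 and processed with Cell Ranger and Seurat on mm10, and the file headers name Cell Ranger 6.1.2, whereas the study's methods name other settings. The deposited counts were not normalized. Members and lists were chosen with earlier results of these data known. Cells with at least 200 genes and 1000 UMIs were gated on marker genes (for enterocytes, 5 of the markers and at least 2% of UMIs), and no doublet caller was run, cells with markers of 2 classes being left out. UMIs were summed per library and class, or bin, and fitted with edgeR 4.0.16 (R 4.3.3) after filterByExpr (at least 10 counts, 15 in total) and TMM scaling, by robust glmQLFit and glmQLFTest ( Benjamini-Hochberg adjustment over all genes tested, threshold 0.05); DESeq2 1.42.0 was an alternative. The fits by label in enterocytes and goblet cells, of tip against lower villus and of position by label were run on simulated data. Those of other classes and of single bins were not. Position fits had the library as a block. Named genes were the members, the called genes of each list with the largest absolute log2 fold change (at most 5 per list and comparison), the 5 genes most like Mt1, Elavl1, and at most 3 genes of the regional and dissociation lists. Each library is a different mouse. Sampling more UMIs gives less counting error. SDs are over 3 libraries per group, and SEs are those of the edgeR fits, not a spread over 3 libraries.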

Additional observations from a re-analysis of the deposited data

Results flagged for a closer look

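For 12 genes of the zinc and copper lists the label difference at the villus tip differed from that in the lower villus by edgeR's interaction test. Among zinc genes the differences (tip minus lower villus, log2) were -0.99 for Slc30a2, -0.73 for Slc30a10, -0.51 for Slc39a3, -0.48 for Slc39a14, -0.42 for Slc30a5 and -0.21 for Mtf1, each of them more negative at the tip, and 0.33 for Crip1. Among copper genes they were -0.55 for Atp7a and 0.38 for Atox1, 0.31 for Commd1, 0.26 for Cox17 and 0.15 for Sod1. Atp7a was at 17.8 ± 1.58 CPM in control and 24.3 ± 0.72 CPM in IE-HuR-/- lower villus, and at 19.4 ± 2.92 and 17.1 ± 1.63 CPM at the tip. Atox1 was at 270.4 ± 15.6 and 239 ± 3.82 CPM in the lower villus and at 99.97 ± 10.4 and 109 ± 4.09 CPM at the tip. For Sod1 the call was lost without TMM scaling (0.07), and for Slc39a3 and Sod1 it was lost when any of 4 libraries was left out. Groups of 3 libraries were not searched for single outlying libraries.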

How the results depend on the processing

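Over the alternatives run, 57 of 59 counts of called zinc and copper genes stayed within 1.5 times the main count. These counts add both directions, whose split shifted without TMM scaling, as given above. Named list genes were picked for large fold changes. Of their values, 496 of 516 kept their direction and their side of the threshold, and 20 lost the call. Of the members' values, 249 differed from the main value by less than the SD between libraries, 42 by more, and 4 turned direction. Of those without TMM scaling, 12 moved by more than this SD and 8 did not. Without TMM scaling, Mt1 in enterocytes came to 3.37 against 3.57, its tip-minus-lower difference over both groups to -2.01 against -1.65, and the goblet count to 12 against 7. That pooled difference describes neither group alone, since the Mt1 gradients of the groups differed. With the villus divided into 2 bins, that difference was -1.36. In goblet cells with under 2% enterocyte-marker UMIs, an alternative chosen after seeing the data, 4 genes were called, 2 of them higher. Mt2 turned direction in goblet cells with the marker share set lower (0.15) and without IE-HuR-/- replicate 2 (leaving out 1 library gave -0.54 to 0.067), and for position by label with a floor of 500 genes and a ceiling of 25% mitochondrial UMIs (0.024) and without control replicate 2 (leaving out 1 library gave -0.995 to 0.18). Leaving out each library in turn gave 18 to 20 called genes in enterocytes, 5 to 8 in goblet cells, 25 to 28 for tip against lower villus and 9 to 13 for the interaction, against 20, 7, 26 and 12. Mt1 then ranged from 3.48 to 3.62 in enterocytes and its tip-minus-lower difference over both groups from -1.93 to -1.38, and Mt2 ranged from -0.41 to -0.17 in enterocytes. With the replicate block the counts were 20 and 7, and libraries of one number did not deviate together (correlations from -0.18 to 0.02). With 3 libraries per group these correlations cannot exclude that the numbers pair the mice. The causes were not tested. Depth limits Mt2 at the tip, with 72 and 25 UMIs, and the progenitor class.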

Other observations

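Outside the epithelium, fibroblasts held Mt1 at 626, 594 and 684 CPM in controls and at 615, 714 and 1533 CPM in IE-HuR-/- libraries, and the groups overlapped. Mt2 was at 160.0 ± 41.3 and 154 ± 108 CPM in the same cells, the second-highest Mt2 level of control classes after progenitors, and each Mt2 UMI stood beside 3.38 to 5.23 Mt1 UMIs in control fibroblasts. These sums rest on 3 to 8 fibroblasts in each IE-HuR-/- library. Myeloid cells held Mt1 at 131, 216 and 118 CPM against 289, 359.6 and 439 CPM, without overlap. That was 53.6% to 108.6% of the enterocyte level in controls, where Apoa1 stood at 3.59% to 21.7%, and 14.6% to 20.3% in IE-HuR-/- libraries, where Apoa1 stood at 5.71% to 6.84%. Other enterocyte genes varied more. In control replicate 2, the library with Mt1 at 108.6%, Fabp1 stood at 58.8%, Sis at 68.2% and Apoa4 at 17.7%. Erythroid cells, which carried Mt1 at 25.1 ± 7.69 against 205 ± 73.8 CPM, had Apoa1 at 9.82% to 16.4% and 6.61% to 7.99% of its enterocyte level. The part of free RNA in these levels was not tested.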
